A study of Homo sapiens with 4 samples.

Results

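The genes described here encode enzymes that add methyl groups to, or remove them from, histones and other proteins. They were taken from a table of gene counts as every protein-coding gene whose symbol belongs to the KMT, SETD, PRMT, NSD, EZH, EHMT or KDM series, which gave 54 of the 60544 genes in the table, of which 19931 are protein-coding. Of the 54, 34 were classed as writers, which add methyl groups, and 20 as erasers, the KDM symbols. The cells were PC3, an established human prostate cancer line, grown in RPMI-1640 with serum. Control libraries (label shNC, 2 libraries) were compared with libraries labelled sh812 (2 libraries), read as the METTL3 knockdown arm because the series describes METTL3 knockdown against control and this is the other label. The knockdown arm therefore carries 1 hairpin label, and neither the time after transduction nor the vector is named. The labels number the libraries of each group but do not say that they came from separate cultures, so the p-values measure the spread between these libraries, which may be technical.

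Lysine methylation of histones is laid down mainly by SET domain enzymes and arginine methylation by the PRMT family, both with S-adenosylmethionine as the methyl donor. Methylation of histone H3 at lysine 4 or lysine 36 is typical of active promoters, enhancers and gene bodies, while methylation at lysine 9 or lysine 27 is typical of silent chromatin. Demethylation is carried out by the flavin-dependent KDM1 enzymes and by Jumonji enzymes, which need iron, oxygen and 2-oxoglutarate. METTL3, which places N6-methyladenosine on RNA, is itself a methyltransferase and uses the same donor. In prostate cancer EZH2 and KDM1A have been studied widely, and KMT2C, KMT2D and KDM6A are recurrently mutated.

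The targeted transcript METTL3 (ENSG00000165819, chr14:21498133-21511375, minus strand) had 1682 and 1379 counts in shNC and 269 and 313 in sh812. Its level fell by 81.3% (log2 fold change -2.42, SE 0.11, adjusted p = 5.54e-14 in edgeR's quasi-likelihood test, as are all adjusted p-values here unless another fit is named). Libraries held 31450648 to 37041330 counts. Levels are given as CPM (counts divided by the library's total and scaled alike in all libraries), with the total adjusted by the trimmed mean of M-values (TMM). Of 5 epithelial markers all 5 were tested and 3 were higher in sh812 (KRT18, EPCAM and CDH1). Among prostate luminal markers, KLK3 and KLK2 had no count. Among the defining markers of other cell types, CD3E was at 0 counts and CDH5 and VWF had at most 6 counts in any library, while PECAM1 was higher in sh812 (log2 fold change 0.59). Summed over each list, epithelial markers were at 816 and 921 CPM in shNC and 956 and 1017 in sh812. The endothelial sum was 23.8 and 23.8 against 32.9 and 38.8, nearly all of it PECAM1. The fibroblast sum was 38.9 and 40.7 against 30.3 and 36.3. Nearly all of that was COL1A1, at 37.6 and 39.4 against 29.3 and 34.5, which was not called (adjusted p = 0.0589). Leukocyte markers summed to at most 1.11 CPM in any library. The part of these marker differences in the results on the enzymes was not tested. RNA came from whole cultures, so fewer cells with a transcript and less of it per cell cannot be told apart.

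Most methylation enzyme genes did not pass the test, and those that did moved by less than 1.5-fold. Of the 54 genes, 50 had enough counts to be tested (33 writers and 17 erasers). Calls were made where p, adjusted over all 16802 genes tested, was under 0.05. By that rule 4 of the 50 were called (8%), against 10.8% of all genes tested. PRMT6, PRMT1 and KDM1A rose (3 genes, against 5.43% of all genes tested called higher), and KMT2D fell (1 gene, against 5.42% called lower). Apart by kind, 2 of 33 writers rose and 1 fell (9.09% called), and 1 of 17 erasers rose and 0 fell (5.88% called). The median log2 difference was 0.014 in writers and -0.061 in erasers, beside -0.0056 over all genes tested. Both medians turned sign in some fits. With 1 library left out at a time the median of writers ranged from -0.044 to 0.048 and that of erasers from -0.051 to 0.011, and library size alone gave -0.032 in writers. At an unadjusted p under 0.05, 5 of the 50 were higher and 9 lower (28%), against 24.8% of all genes tested. Both sh812 libraries lay above both shNC libraries for 14 of the 50, against 26.2% of all genes tested, and below both for 15, against 27.4%. The shares of members are thus near the background under each rule. The median size of the log2 difference was 0.12 in members and 0.17 over all genes, with a median SE of 0.083 in members and 0.118 over all genes.

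For the 4 called genes, which carry the differences described next, the 250 bases before a RefSeq transcription start are shown (GRCh38.p14). They run 5′ to 3′ on the gene's own strand, from the first listed start of each gene. The windows are PRMT6 (chr1:107056424-107056673, plus strand), PRMT1 (chr19:49677021-49677270, plus strand), KDM1A (chr1:23019218-23019467, plus strand) and KMT2D (chr12:49060795-49061044, minus strand). These starts can differ from the gene spans given below. The PRMT1 window lies inside its gene's span, and the KMT2D window lies upstream of its span with a gap. Capitals mark matches, on either strand, to 5 promoter motifs, the GC box, CCAAT box, E-box, ETS core and TATA box, whose letters are given with their shares.
PRMT6: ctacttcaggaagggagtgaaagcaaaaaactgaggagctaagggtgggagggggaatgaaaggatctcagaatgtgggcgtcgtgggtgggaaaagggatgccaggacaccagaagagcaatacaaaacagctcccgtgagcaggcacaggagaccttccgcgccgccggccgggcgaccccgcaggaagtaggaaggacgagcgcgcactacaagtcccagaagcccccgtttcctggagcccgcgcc
PRMT1: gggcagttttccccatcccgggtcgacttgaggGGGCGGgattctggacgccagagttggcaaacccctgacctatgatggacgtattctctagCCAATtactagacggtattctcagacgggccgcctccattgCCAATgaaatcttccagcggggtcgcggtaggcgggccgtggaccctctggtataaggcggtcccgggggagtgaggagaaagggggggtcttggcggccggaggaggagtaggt
KDM1A: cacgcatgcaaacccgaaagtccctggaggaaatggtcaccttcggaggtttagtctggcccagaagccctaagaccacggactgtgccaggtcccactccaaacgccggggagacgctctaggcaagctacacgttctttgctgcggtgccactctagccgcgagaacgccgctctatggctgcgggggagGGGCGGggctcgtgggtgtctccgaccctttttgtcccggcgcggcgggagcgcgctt
KMT2D: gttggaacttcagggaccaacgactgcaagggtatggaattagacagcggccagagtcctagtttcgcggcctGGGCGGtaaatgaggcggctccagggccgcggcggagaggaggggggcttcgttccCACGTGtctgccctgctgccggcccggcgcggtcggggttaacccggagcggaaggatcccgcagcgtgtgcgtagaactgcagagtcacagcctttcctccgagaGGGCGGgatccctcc
These windows are rich in G and C, with 60.4% in PRMT6, 61.2% in PRMT1, 64% in KDM1A and 65.6% in KMT2D, beside a median of 66% over the 48 members that matched a RefSeq window. The PRMT1 window holds 1 GC box and 2 CCAAT boxes, the KDM1A window holds 1 GC box, the KMT2D window holds 2 GC boxes and 1 E-box, and none of the 5 motifs was found in the PRMT6 window. The GC box, searched as GGGCGG, was found in 37 of the 48 member windows (77.08%), in 65.98% of the 11358 tested genes with a window and in 42.64% of all 35116 windows of this length. The E-box, searched as CACGTG, was found in 9 of 48 (18.75%), against 8.584% of tested genes and 6.345% of all windows. The CCAAT box was found in 17 of 48 (35.42%), against 35.07% and 32.01%, and the ETS core, with the letters CCGGAA, in 11 of 48 (22.92%), against 23.97% and 14.53%. The TATA box, with the letters TATAAA, was in 0 of 48, against 5.749% of tested genes and 10.72% of all windows. A match describes letters in the window and is no evidence of binding.

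Levels of the enzymes spanned more than the differences between the groups. On a scale that allows genes to be compared, CPM per kilobase of annotated exon and the mean of both groups, PRMT1 was highest at 75.2, followed by KDM1A at 45.6 and PRMT5 at 42.5. These are the main asymmetric arginine methyltransferase, the H3K4 demethylase also called LSD1, and the main symmetric arginine methyltransferase. SETD3, the actin histidine methyltransferase, followed at 20.1, then KDM5C at 18.3, KMT5A at 12.5, KDM2A at 11.8 and EZH2 at 11.4. At the low end of the tested genes were KMT2C at 1.30, EZH1 at 1.25, KDM7A at 0.766 and KDM8 at 0.636. EZH2 was thus above its paralogue EZH1 on this scale.

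**Figure D1:**
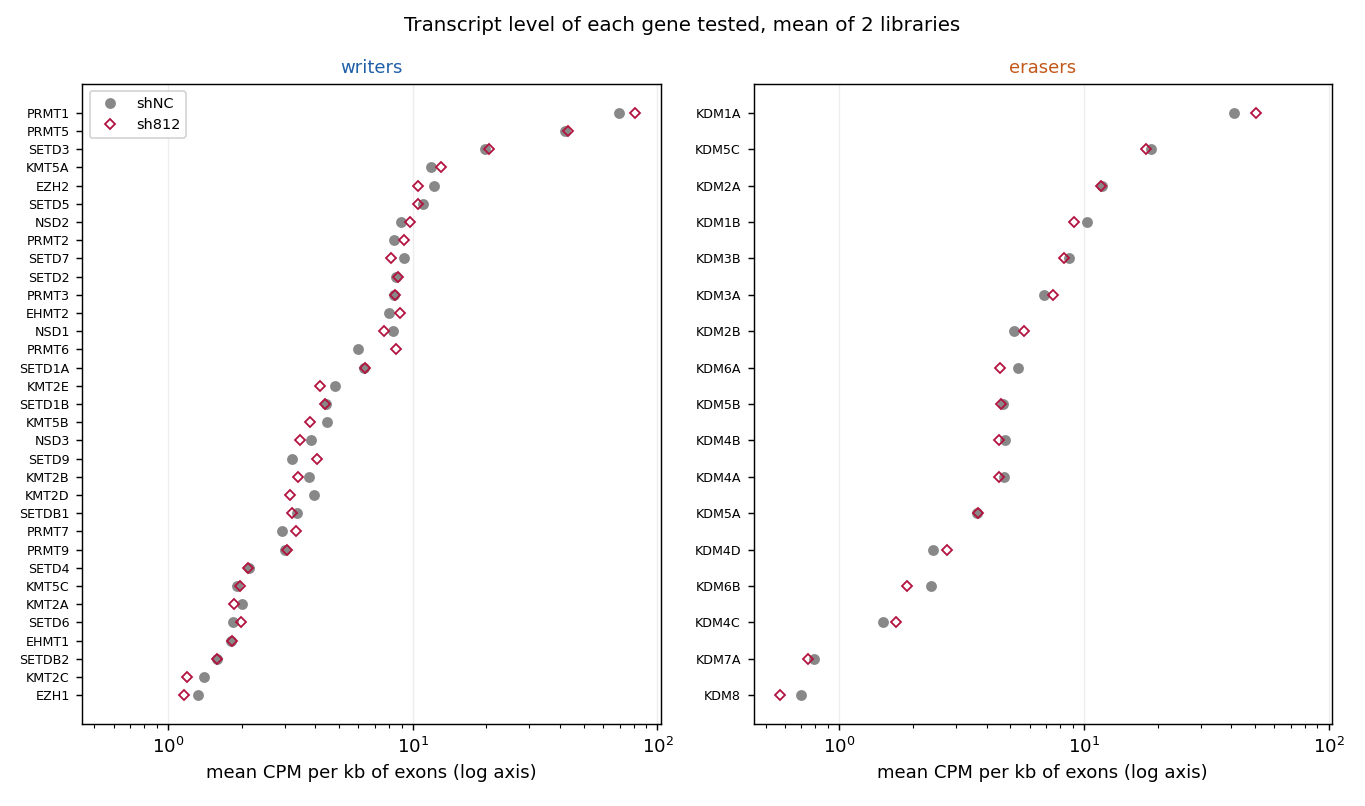
Mean CPM per kilobase of exon (log axis) of the 33 writers and 17 erasers tested, as the mean of 2 libraries in shNC (filled circles) and sh812 (open diamonds). PRMT1 leads the writers and KDM1A the erasers, and within a gene the marks of both groups lie close together compared with the range across genes.

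Writers of arginine methylation gave 2 of the 4 calls. Of the 7 PRMT genes tested, 2 rose, 0 fell and all 7 had a fitted difference above 0, with a median of 0.14 on the log2 scale. Over all 16802 genes tested, 5.43% were called higher and 8232 had a fitted difference above 0, and nothing particular to the family is read from its count. PRMT6, which places asymmetric dimethylation on histone H3 arginine 2 and so opposes H3K4 trimethylation, was at 25.0 and 26.8 CPM in shNC and 37.7 and 36.4 in sh812. Both sh812 libraries lay above both controls, and each pair was tight. The mean went from 25.9 ± 1.29 to 37.0 ± 0.923 CPM (SD, n = 2 libraries each), a fitted rise of 42.8% (log2 fold change 0.51, SE 0.09, adjusted p = 0.000505). PRMT6 (ENSG00000198890) lies at chr1:107056679-107067636 on the plus strand, and its window above was the one without a searched motif. PRMT6 was called in every alternative fit that was run.

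PRMT1, which makes most of the asymmetric dimethylarginine in human cells, was at 325 and 345 CPM in shNC and 392 and 381 in sh812. The groups did not overlap, and the difference was small beside a high level. The mean went from 335 ± 13.8 to 386 ± 8.16 CPM (SD, n = 2 libraries each), a fitted rise of 15.4% (log2 fold change 0.21, SE 0.06, adjusted p = 0.0221). The call was lost, at a log2 fold change of 0.12 (adjusted p = 0.141), after each library's trend on transcript length was removed, and at 0.16 (adjusted p = 0.0535) when library size alone was used for scaling. PRMT1 (ENSG00000126457, chr19:49675786-49689029, plus strand) shares 366 bp of exon with ADM5 on the same strand, so reads there cannot be assigned to 1 gene.

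Other arginine methyltransferases did not pass the test. PRMT7, which makes monomethylarginine, was at 26.9 and 28.3 CPM in shNC and 34.0 and 28.8 in sh812 (log2 difference 0.18, adjusted p = 0.247), with replicate 1 of sh812 apart from the rest. PRMT2, a weak enzyme known as a nuclear receptor coactivator, was at 67.7 and 67.1 CPM in shNC and 75.4 and 73.1 in sh812 (log2 difference 0.14, adjusted p = 0.21). PRMT5, the catalytic subunit of the symmetric enzyme that methylates spliceosomal Sm proteins, was at 149 and 141 CPM in shNC and 155 and 145 in sh812 (log2 difference 0.05, adjusted p = 0.689), and the groups overlapped. PRMT3 was at 44.4 and 47.3 CPM against 49.1 and 43.6, and PRMT9 at 13.5 and 10.8 against 13.0 and 11.5, both with overlapping groups. PRMT8, a form known from brain, was below the filter with 0 and 0 counts in shNC and 4 and 2 in sh812.

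Writers of H3K4 methylation, which include very large proteins, gave the single fall. Of the 7 tested, 0 rose and 1 fell, 6 had a fitted difference below 0, and in 5 both sh812 libraries lay below both controls. Over all 16802 genes tested, 5.42% were called lower, 8570 had a fitted difference below 0 and 27.4% had both sh812 libraries below both controls. The median of the H3K4 writers was -0.16 on the log2 scale and -0.070 after removal of the length trend. KMT2D, which monomethylates H3K4 at enhancers, was at 89.6 and 71.8 CPM in shNC and 65.8 and 63.2 in sh812. Replicate 1 of shNC stood above the other 3 libraries, and replicate 2 of shNC lay closer to the sh812 libraries than to its own partner. The mean went from 80.7 ± 12.6 to 64.5 ± 1.88 CPM (SD, n = 2 libraries each), a fitted fall of 20.2% (KMT2D percent change -20.2, log2 fold change -0.33, SE 0.08, adjusted p = 0.012). Without replicate 1 of shNC the difference was -0.16 (adjusted p = 0.199), without replicate 2 of sh812 it was -0.30 (adjusted p = 0.103), and with the length trend removed it was -0.23 (adjusted p = 0.0454). KMT2D (ENSG00000167548, chr12:49018975-49059774, minus strand) has a longest annotated transcript of 19419 bp and shares exon sequence with DDN-AS1 on the opposite strand.

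KMT2C, the paralogue of KMT2D in the same kind of enhancer complex, was at 30.9 and 25.5 CPM in shNC and 23.5 and 24.7 in sh812 (log2 difference -0.23, adjusted p = 0.162), with the groups close at their nearest libraries. Copies of part of this gene elsewhere in the genome make its counts less certain. KMT2A, which works with menin at promoters such as those of HOX genes, was at 66.0 and 59.8 CPM in shNC and 59.3 and 57.7 in sh812 (log2 difference -0.10, adjusted p = 0.418). KMT2A shares 5599 bp of exon with AP001267.5 on the same strand, so reads there cannot be assigned to 1 gene. KMT2B, the closest relative of KMT2A, was at 42.1 and 35.7 CPM in shNC and 35.6 and 34.3 in sh812 (log2 difference -0.16, adjusted p = 0.297). In all 4 KMT2A to KMT2D genes replicate 1 of shNC was the highest library. SETD7, a monomethyltransferase of H3K4 and of many other proteins, was at 133 and 122.8 CPM in shNC and 119 and 108 in sh812 (log2 difference -0.17, adjusted p = 0.107). SETD1A and SETD1B, which carry most H3K4 trimethylation, had overlapping groups, at 45.2 and 40.8 CPM against 45.2 and 42.1 for SETD1A, and at 37.5 and 35.9 against 38.3 and 34.2 for SETD1B.

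**Figure D2:**
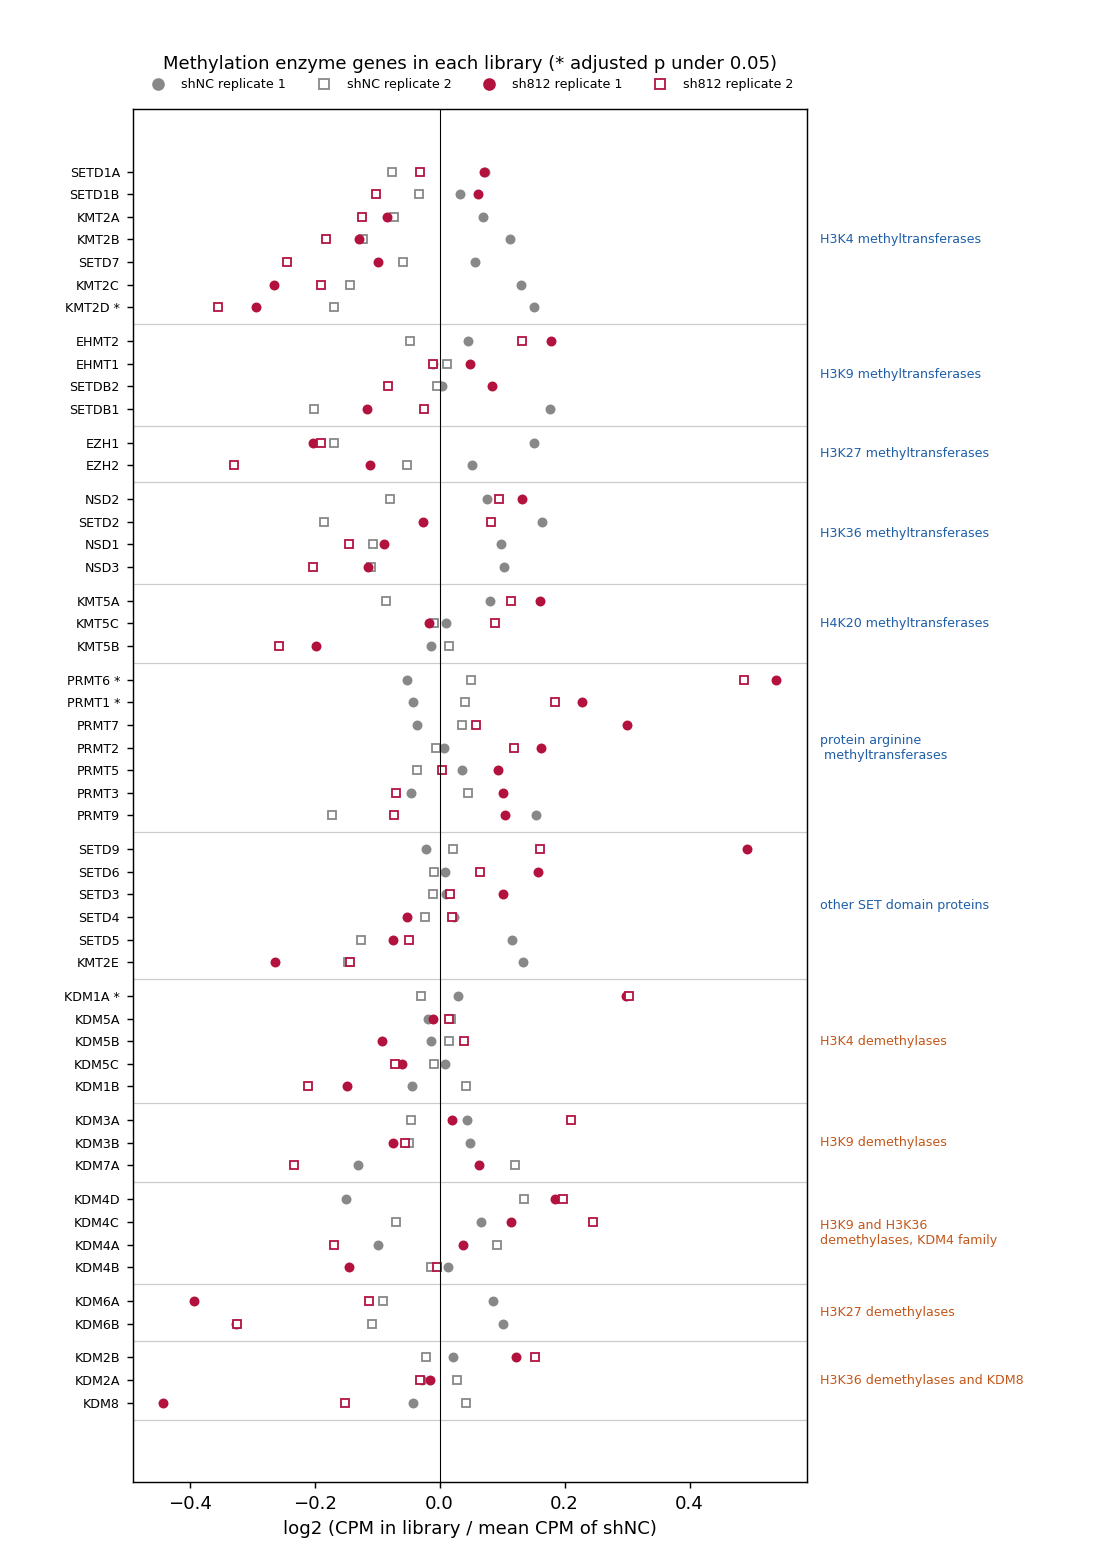
The log2 ratio of CPM in each library to the mean CPM of shNC for the 50 genes tested, grouped by mark, with shNC in grey, sh812 in red, replicate 1 as filled circles and replicate 2 as open squares. For PRMT6 and KDM1A the sh812 pair lies apart from the control pair, whereas for KMT2D the control libraries are themselves spread between 89.6 and 71.8 CPM.

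Writers of H3K9 methylation among the members, the EHMT and SETDB symbols, gave no call (0 of 4), with a median log2 difference of 0.011. SUV39H2, an H3K9 enzyme outside the symbol rule, was called lower and is described with the other methyltransferases. EHMT2, also called G9a, which with EHMT1 makes H3K9 mono- and dimethylation, was at 60.0 and 56.2 CPM in shNC and 65.7 and 63.7 in sh812 (log2 difference 0.15, adjusted p = 0.191). The groups of EHMT2 did not overlap, and it shares exon sequence with an antisense gene, EHMT2-AS1. EHMT1 was at 39.7 and 40.3 CPM against 41.4 and 39.8, and SETDB1, which trimethylates H3K9 over retroelements, at 26.97 and 20.7 against 22.02 and 23.4. SETDB2 was at 10.6 and 10.6 CPM against 11.2 and 10.0. These 3 genes had overlapping groups.

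For H3K27, writers and erasers both lay lower in sh812 without passing the test. EZH2, the catalytic subunit of Polycomb repressive complex 2 in dividing cells, was at 57.2 and 53.2 CPM in shNC and 51.0 and 43.9 in sh812 (log2 difference -0.22, adjusted p = 0.0931). EZH1 was at 10.3 and 8.28 CPM in shNC and 8.09 and 8.16 in sh812 (log2 difference -0.20, adjusted p = 0.438). The H3K27 demethylase KDM6B was at 18.4 and 15.9 CPM in shNC and 13.7 and 13.7 in sh812 (log2 difference -0.33, adjusted p = 0.0745). Its X-linked relative KDM6A, a subunit of the KMT2C and KMT2D complexes, was at 40.8 and 36.2 CPM in shNC and 29.3 and 35.6 in sh812 (log2 difference -0.25, adjusted p = 0.103). In all 4 genes both sh812 libraries lay below both controls, in EZH1 and KDM6A by a small margin, as did 27.4% of all genes tested. EZH2, KDM6A and KDM6B were called lower when replicate 2 of shNC was left out, and EZH2 and KDM6B when library size alone was used. Without replicate 1 of shNC the log2 differences were smaller, at -0.03 in EZH1, -0.16 in KDM6A and -0.22 in KDM6B. The difference in EZH2 was -0.11 without replicate 2 of sh812, and that in KDM6A was -0.11 without replicate 1 of sh812.

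Writers of H3K36 methylation gave no call (0 of 4), with a median log2 difference of -0.045, or 0.045 after removal of the length trend. NSD2, a dimethyltransferase known for its translocation in myeloma, was at 187 and 168 CPM in shNC and 195 and 190 in sh812 (log2 difference 0.11, adjusted p = 0.279). With the length trend removed NSD2 passed the test (log2 fold change 0.20, adjusted p = 0.0219). NSD3 was at 63.0 and 54.4 CPM in shNC and 54.2 and 51.0 in sh812 (log2 difference -0.16, adjusted p = 0.225). NSD1 was at 138 and 119.5 CPM against 121 and 116 (log2 difference -0.12, adjusted p = 0.305), with overlapping groups. SETD2, the enzyme of H3K36 trimethylation, was at 96.9 and 76.1 CPM in shNC and 84.9 and 91.6 in sh812, so that both sh812 libraries lay between the controls.

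Among writers of H4K20 methylation 0 of 3 were called. KMT5B, a dimethyl and trimethyl enzyme, was at 38.1 and 38.9 CPM in shNC and 33.6 and 32.2 in sh812 (log2 difference -0.23, adjusted p = 0.088). KMT5A, the monomethyl enzyme that acts in mitosis, was at 57.6 and 51.3 CPM in shNC and 60.9 and 58.9 in sh812 (log2 difference 0.14, adjusted p = 0.286). KMT5B lay apart on the low side and KMT5A on the high side, as did 27.4% and 26.2% of all genes tested. KMT5C was at 9.23 and 9.11 CPM against 9.06 and 9.75. Of the 6 other SET domain proteins 0 were called. SETD9 was at 8.57 and 8.82 CPM in shNC and 12.2 and 9.72 in sh812 (log2 difference 0.34, adjusted p = 0.138), which rests largely on replicate 1 of sh812. KMT2E, a chromatin reader with a SET domain, was at 48.6 and 40.1 CPM against 37.0 and 40.2 (log2 difference -0.20, adjusted p = 0.162). SETD3 was at 103 and 102 CPM against 110 and 104 (log2 difference 0.06, adjusted p = 0.634). SETD4, SETD5 and SETD6 had 15.1 to 15.9, 109 to 129 and 9.26 to 10.4 CPM over the 4 libraries.

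KDM1A was the 1 eraser called. The enzyme, which removes mono- and dimethylation from H3K4 within the CoREST complex, was at 227 and 218 CPM in shNC and 273 and 274 in sh812. The sh812 libraries were nearly equal and both lay above both controls. The mean went from 222 ± 6.51 to 274 ± 0.717 CPM (SD, n = 2 libraries each), a fitted rise of 23.1% (log2 fold change 0.30, SE 0.06, adjusted p = 0.00143). It was called in every alternative fit that was run, with 0.28 (adjusted p = 0.00145) after removal of the length trend. KDM1A (ENSG00000004487) lies at chr1:23019443-23083689 on the plus strand. Its paralogue KDM1B was at 55.9 and 59.4 CPM in shNC and 52.0 and 49.8 in sh812 (log2 difference -0.18, adjusted p = 0.138), so that the fitted values of the 2 flavin-dependent enzymes had opposite signs. The Jumonji H3K4 demethylases were close to their controls. KDM5A was at 43.8 and 44.9 CPM against 44.1 and 44.8, KDM5B at 120.0 and 122 against 114 and 124, and KDM5C at 165 and 163 against 157 and 156. KDM5D, encoded on the Y chromosome, had too few counts in any library to be tested.

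Erasers of H3K9 and H3K36 methylation gave no call. KDM3A, an H3K9 demethylase, was at 95.5 and 89.7 CPM in shNC and 93.9 and 107 in sh812 (log2 difference 0.12, adjusted p = 0.321), with overlapping groups. KDM3B was at 71.4 and 66.8 CPM against 65.6 and 66.5 (log2 difference -0.07, adjusted p = 0.636), and KDM7A at 6.78 and 8.06 against 7.75 and 6.32. The KDM4 family acts on H3K9 and, in some members, on H3K36. In this family KDM4B was at 70.5 and 69.1 CPM against 63.1 and 69.6 (log2 difference -0.07, adjusted p = 0.596). KDM4C was at 16.3 and 14.8 CPM against 16.8 and 18.4 (log2 difference 0.18, adjusted p = 0.351), and KDM4D at 6.46 and 7.87 against 8.15 and 8.22 (log2 difference 0.20, adjusted p = 0.477). KDM4A was at 22.8 and 26.0 CPM against 25.0 and 21.7, and shares 2077 bp of exon with AL451062.3 on the same strand. KDM4E and KDM4F had no count in any of the 4 libraries. KDM2B, a demethylase of H3K36 that also brings a variant Polycomb complex 1 to CpG islands, was at 71.7 and 69.7 CPM in shNC and 76.9 and 78.5 in sh812 (log2 difference 0.14, adjusted p = 0.218). KDM2B passed the test with the length trend removed (log2 fold change 0.21, adjusted p = 0.034). KDM2A was at 121 and 126 CPM against 122 and 121 (log2 difference -0.02, adjusted p = 0.875). KDM8 was at 2.74 and 2.91 CPM against 2.08 and 2.54 (log2 difference -0.29, adjusted p = 0.546), a level too low for a difference of this size to be told from its error.

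Length of the transcript moved with the differences among writers. The members are long, with a median longest transcript of 5880.5 bp, beside 3218 bp over all genes tested. Over the 33 writers the difference between sh812 and shNC had a Spearman correlation of -0.66 with transcript length, and the difference between the 2 control libraries had one of -0.53. The corresponding value between the 2 sh812 libraries was 0.21. Over the 17 erasers these values were -0.0025, -0.17 and -0.03. Over 12254 genes of adequate level they were -0.33, -0.32 and 0.042. The points of each correlation come from the same 4 libraries, and the values are descriptions with no p. With each library's own length trend removed, the writers' value was -0.42. Of the 50 members, 5 were then called (9.43% of all genes): KDM1A, KDM2B, NSD2 and PRMT6 higher and KMT2D lower. With GC content removed as well 6 were called (10.2% of all genes), KDM3A being the sixth (log2 fold change 0.20, adjusted p = 0.0428). The cause of the length trend was not tested.

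**Figure D3:**
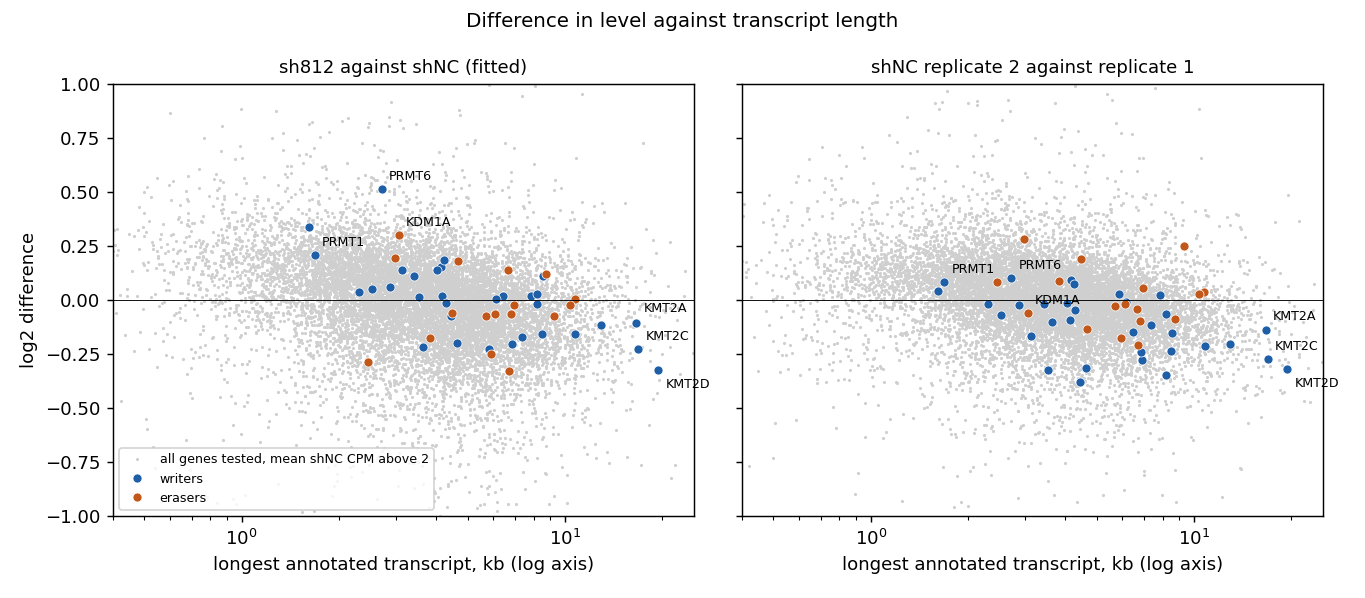
The log2 difference of sh812 against shNC (left) and of shNC replicate 2 against replicate 1 (right) by the longest annotated transcript in kilobases (log axis), for writers (blue), erasers (orange) and all genes tested with a mean shNC CPM above 2 (grey), with the vertical axis limited to 1 in either direction. The writers slope downward in both panels, with a Spearman correlation of -0.66 on the left and -0.53 on the right.

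**Figure D4:**
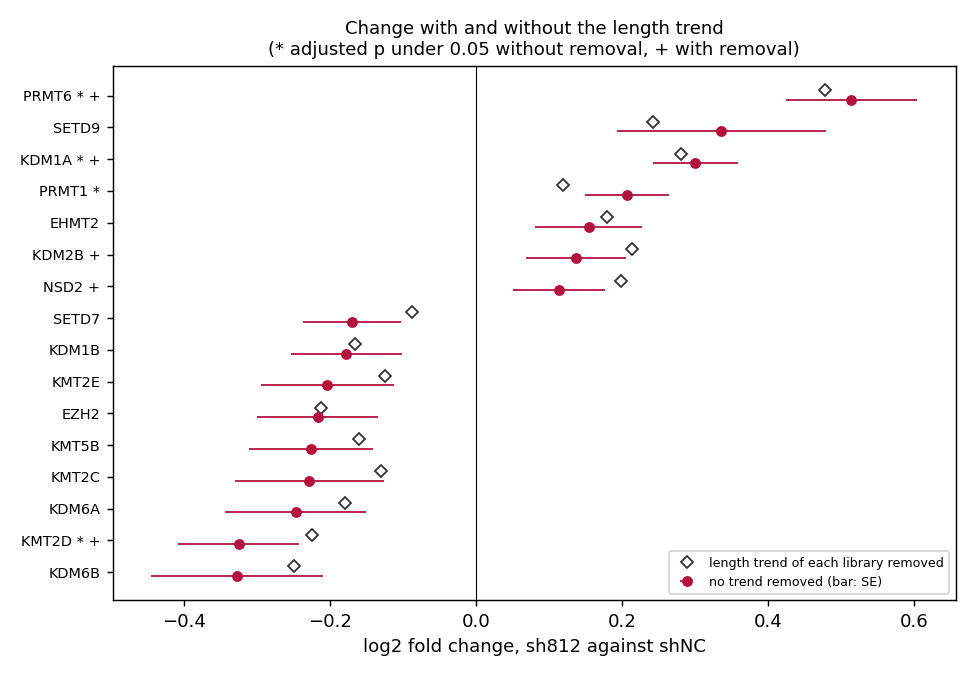
The log2 fold change of sh812 against shNC without removal of a trend (red circles, bars for 1 SE) and with each library's length trend removed (open diamonds), for members with an unadjusted p under 0.05 or a call after removal. PRMT6 and KDM1A keep nearly the same value (0.48 and 0.28 after removal), PRMT1 goes from 0.21 to 0.12 and KMT2D from -0.33 to -0.23.

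The calls on the lower side depended on which control library was used. Without replicate 2 of shNC, 3 of the 50 members were called higher and 11 lower (18.1% of all genes called). The 11 were EZH2, KDM6A, KDM6B, KMT2B, KMT2C, KMT2D, KMT2E, NSD1, NSD3, SETD5 and SETD7. Without replicate 1 of shNC, 5 were called higher (KDM1A, NSD2, PRMT1, PRMT6 and SETD2) and 0 lower (10.4% of all genes called). Without replicate 1 of sh812 the calls were KDM1A and PRMT6 higher and KMT2D lower (3.28% of all genes called), and without replicate 2 of sh812 they were KDM1A and PRMT6 alone (3.81% of all genes called). PRMT1 was not called in either of these fits, with a log2 difference of 0.19 (adjusted p = 0.331) and 0.23 (adjusted p = 0.17), close to its 0.21 with all libraries. With library size alone as the scaling, KDM1A and PRMT6 were called higher and EZH2, KDM6B, KMT2D, KMT5B and SETD7 lower (11.2% of all genes called). Under that scaling 29.7% of the calls over all genes were on the higher side, beside 50.1% with TMM. Each share of all genes called in this paragraph counts both directions, so it is not the background of the lower calls alone. In the fit without replicate 2 of shNC, replicate 1 is the lone control library. Nothing particular to the members is therefore read from their lower calls in that fit. The part of transcript length in those calls was not tested.

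The motif GGACT, a common form of the site that METTL3 methylates, was counted in the longest transcript of each gene on the transcript's strand. Members had a median of 1.06 per kilobase, beside 0.909 over all genes tested. The Spearman correlation of this density with the difference between the groups was -0.22 over the 33 writers, -0.28 over the 17 erasers and 0.018 over all genes. A motif is not a measured methylation, and the libraries do not report one.

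Partners of these enzymes were described by lists written from general knowledge. None of 13 subunits and associated genes of the COMPASS and MLL complexes (TASP1 among them) was called in either direction. The same held for 10 tested Polycomb repressive complex 2 subunits and 12 subunits of KDM1A complexes. Medians of these 3 lists were 0.061, 0.022 and 0.033 on the log2 scale. As 10.8% of all genes tested were called, nothing about the partners of KDM1A is read from 0 calls among 12. At an unadjusted p under 0.05, edgeR gave 1 higher and 0 lower, 1 higher and 0 lower, and 2 higher and 2 lower in these 3 lists. With the length trend removed 0, 1 and 1 were called higher and 0 lower in each. They were LCOR of the Polycomb list (log2 fold change 0.34, adjusted p = 0.0141) and HDAC2 of the KDM1A list (0.24, adjusted p = 0.00651). Of 8 partners of PRMT5 and of arginine methylation, 1 rose and 0 fell. That gene was CLNS1A, or pICln, which brings Sm proteins to PRMT5, at 111 and 115 CPM in shNC and 151 and 143 in sh812 (log2 fold change 0.39, adjusted p = 0.000211).

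Of 23 other protein methyltransferases and demethylases, 1 rose and 2 fell, with a median of -0.047. SMYD2, a lysine methyltransferase of p53 among other proteins, rose (log2 fold change 0.30, adjusted p = 0.00546). SUV39H2, which trimethylates H3K9 in heterochromatin, was at 17.2 and 20.8 CPM in shNC and 14.5 and 12.3 in sh812 and fell (log2 fold change -0.50, adjusted p = 0.0102). JMJD1C, a Jumonji protein, was at 209 and 165 CPM in shNC and 157 and 158 in sh812 and fell (log2 fold change -0.25, adjusted p = 0.0357), but had -0.16 (adjusted p = 0.138) with the length trend removed. As in KMT2D, replicate 1 of shNC was the library apart, and without it JMJD1C was at -0.07 (adjusted p = 0.536). DESeq2 did not call JMJD1C (adjusted p = 0.0592). JMJD1C also lost the call without replicate 1 (adjusted p = 0.166) or replicate 2 (adjusted p = 0.138) of sh812. SUV39H2 lost it without replicate 2 of sh812 (adjusted p = 0.16), and SMYD2 without replicate 1 (adjusted p = 0.132) or replicate 2 (adjusted p = 0.0558) of sh812.

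Cofactor genes completed the description. Of 12 tested genes that supply S-adenosylmethionine or clear its product, 1 rose and 0 fell, with a median of 0.094. It was AHCY, which hydrolyses S-adenosylhomocysteine (log2 fold change 0.20, adjusted p = 0.0299, and adjusted p = 0.0713 with the length trend removed). Of 12 genes of 2-oxoglutarate and the enzymes around it, 3 rose and 0 fell, with a median of 0.065. They were IDH3G, a subunit of the NAD-dependent isocitrate dehydrogenase (log2 fold change 0.28, adjusted p = 0.0033), SDHB, a subunit of succinate dehydrogenase (0.22, adjusted p = 0.0249), and FH, fumarate hydratase (0.20, adjusted p = 0.0264). With the length trend removed IDH3G was still called (0.20, adjusted p = 0.0227), and the adjusted p was 0.293 for SDHB and 0.127 for FH. Without replicate 1 of sh812 none of these 4 genes was called, with an adjusted p of 0.34 for AHCY, 0.135 for IDH3G, 0.404 for SDHB and 0.296 for FH. Without replicate 2 of sh812 IDH3G was called and AHCY (adjusted p = 0.18), SDHB (adjusted p = 0.0834) and FH (adjusted p = 0.203) were not. Without replicate 1 of shNC AHCY was at 0.13 (adjusted p = 0.0633) and SDHB at 0.16 (adjusted p = 0.06). With library size alone AHCY, SDHB and FH had an adjusted p of 0.0704, 0.064 and 0.0638. MTR of the S-adenosylmethionine list and OGDH of the 2-oxoglutarate list were called higher only after removal of a trend. With the length trend removed MTR was at 0.26 (adjusted p = 0.0367) and OGDH at 0.21 (adjusted p = 0.0268), against 0.17 (adjusted p = 0.226) and 0.18 (adjusted p = 0.0626) in the main fit. Beside the list counts, 10.8% of genes were called over the whole table, 5.43% higher and 5.42% lower. In either direction, 24.8% of all genes had an unadjusted p under 0.05 in edgeR. With the length trend removed 9.43% of all genes were called.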

How the data were processed

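Poly(A) RNA of 4 PC3 libraries (2 shNC, 2 sh812) was sequenced as strand-marked paired reads, per the labels' protocols. The authors deposited raw read counts per gene. The submitters' processing notes name the build hg38 and the tools fastp, STAR 2.7.1a, featureCounts and DESeq2, with no role or order. The annotation, the strand setting and the unit counted (read or pair) are not given in the sources used here, so reads of overlapping, antisense or near-identical genes may be shared (22 of the 54 members overlap another gene's exons).

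From the counts, edgeR 4.0.16 in R 4.3.3 (filterByExpr, TMM, quasi-likelihood test on all 4 libraries, no covariate) tested 16802 genes, with Benjamini-Hochberg adjustment over all of them and calls at an adjusted p under 0.05. Fold changes used a prior count of 0.125, and SEs came from the F statistic. CPM is shown as mean ± SD. Transcript lengths, exon overlaps and positions came from GENCODE 29 (GRCh38), and promoter windows from RefSeq. Replicates of both groups differed by more than sampling noise (chi-square per gene 8.43 in shNC and 4.51 in sh812). In simulated counts with 200 of 16399 tested genes changed, 100% at log2 1 and 86% at log2 0.5 were called, with 6 false among 192 calls. The changed genes were drawn from those above a minimum mean CPM, and these counts held no length trend. The rates may therefore not hold for genes of low count or for the real libraries.

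The members and lists were chosen with earlier results of these data known. The genes named are METTL3, every called member, and in each mark class the gene of highest level per kilobase, of largest difference and below the filter, with the called genes of each list. Other members were named after their values were seen. Some markers on the lists are not reported here. Alternatives were RLE and upper quartile factors, no TMM factor, testing unfiltered genes or those with mean CPM at or above 1, DESeq2 1.42.0, limma-voom (3.58.1), the replicate number as a block, each library left out, and removal of length (and GC) trends by lowess of span 0.3.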

Additional observations from a re-analysis of the deposited data

How the results depend on the processing

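RLE and upper quartile factors, testing without a count filter or with mean CPM at or above 1, DESeq2, limma-voom and the replicate block each called PRMT6, PRMT1, KDM1A and KMT2D and no other member. The replicate numbers share only a number (correlation of same-numbered deviations 0.0164). With the replicate block 2001 genes were called, against 1822, and METTL3 was at -2.42.

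With library size alone, 1 writer was called higher and 4 lower and 1 eraser lower, 561 genes were called higher over the whole table, and the erasers' median was -0.106. With the length trend removed, and with length and GC trends removed, 2 and 3 erasers were called higher and the erasers' median was 0.0125 and 0.0186. KDM2A turned to 0.0548 and 0.0621, and KDM3B to 0.0125 and 0.0186, both near 0 in each fit. KDM5B, KDM5C, KDM7A, KMT5C, SETD1B, SETD4 and SETD5 also changed sign in both of these fits, and none of them was called.

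Leaving out 1 library at a time gave 587 to 3252 genes called, 1 to 4 writers called higher and 0 to 9 lower, 0 to 2 erasers called lower and an erasers' median of -0.0509 to 0.0113. KDM2A ranged from -0.05 to 0.0113, and SETD2 from -0.13 to 0.21. These fits assume that the lone library of a group varies as the other group does. The cause of these shifts was not tested.

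With 2 libraries a group, differences of the size of the members' median (0.12 on the log2 scale, with a median SE of 0.083) could mostly not be told from error.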

Other observations

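A further 15 rows of the table have symbols that match the name rule but are not protein-coding (7 long noncoding RNAs and 8 processed pseudogenes). Of these 5 had enough counts to be tested and 0 were called by edgeR (0 also at an unadjusted p under 0.05), and 5 had no count in any library. PRMT5-AS1, which overlaps PRMT5 on the opposite strand, had 1 and 0 counts in shNC and 8 and 7 in sh812, below the filter. KDM2B-DT, a divergent transcript at KDM2B, had 39 and 24 counts in shNC and 23 and 9 in sh812 (adjusted p = 0.298). PRMT1P1, a processed copy of PRMT1 within NSD1, had 0 and 2 counts in shNC and 5 and 3 in sh812. All 3 were chosen after their values were seen.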
